A study of Mus musculus with 8 samples.

Results

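In mouse morulae, 10 genes of the primitive endoderm were followed after knockdown of P150, a subunit of CAF-1 (the complex that places histones on newly copied DNA), and in morulae that received a control siRNA. They are the transcription factor genes Gata4, Gata6, Sox17, Sox7 and Hnf4a, the growth factor receptor gene Pdgfra, and the endocytic genes Dab2, Cubn, Amn and Lrp2. Every probe whose RefSeq accession joins to 1 of these 10 symbols was taken, which gave 12 of the 55681 probes on the array, with 2 each for Sox17 and Cubn and 1 for each other gene. The P150KD group had 5 arrays from embryos injected with P150 siRNA, and the siControl group had 3 arrays from embryos injected with control siRNA. All embryos came from in vitro fertilisation, were cultured in KSOM medium and were collected as morulae at embryonic day 3.0, and each array held amplified, Cy3-labelled RNA of 10 pooled embryos. The labels give neither the mouse strain nor the stage of injection and do not say whether replicates were separate collections, so the p-values measure only the spread between these arrays.

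The primitive endoderm is the extraembryonic layer that arises from the inner cell mass of the blastocyst and later lines the yolk sac. Inner cells start with mixed expression of epiblast and primitive endoderm genes. FGF signalling then favours GATA6 in some of them, and SOX17, GATA4 and SOX7 follow it in the cells that commit. The resulting epithelium takes up maternal protein through megalin (the product of Lrp2) and cubilin (Cubn). Cubilin has no membrane anchor of its own and reaches the surface only with amnionless (Amn), while DAB2 links the receptors to clathrin. HNF4A acts later, in the visceral endoderm, where it drives genes of secreted proteins.

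Cubn and Gata4 rose in the knockdown. Cubn was 4.07-fold higher by 1 of its probes and 6.84-fold higher by the other, and Gata4 was 4.75-fold higher. Signals of Sox17 were higher on most knockdown arrays, but neither of its probes passed the threshold. Gata6, Pdgfra, Dab2, Amn, Lrp2 and Hnf4a did not pass either, and Sox7 was too dim to be tested. In limma, 3 of the 11 tested member probes were higher at an adjusted p under 0.05 and 0 were lower, with 5 and 0 at an unadjusted p under 0.05. Over all 30348 tested probes, 6.28% were higher and 7.66% were lower, 13.9% in all, with 11.85% and 18.6% at an unadjusted p under 0.05. The median log2 fold change was 0.88 over the 11 member probes and -0.20 over all tested probes. Cubn and Sox17 gave 2 of these member probes each. Of the 9 tested member genes, 2 had every probe higher and 7 had no probe past the threshold. The fold changes of Gata6, Pdgfra, Dab2, Lrp2 and Hnf4a were below 0. In RNA of whole embryos, fewer cells of a type and less RNA per cell cannot be told apart.

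Each level is a log2 signal from which the array's own 75th percentile was subtracted, so 0 is a signal at that percentile, and fold changes are P150KD minus siControl on the log2 scale. An array had 50.1% to 55.9% of its spots well above background, its 75th percentile of processed signal was 819 to 1304, and no spot was saturated. Chaf1a, which encodes P150, ran from -1.47 to 0.52 on the 5 P150KD arrays and from 2.09 to 2.40 on the 3 siControl arrays (log2 fold change -2.88, SE 0.48, limma adjusted p = 0.0107), and the 2 probes of Chaf1b, another CAF-1 subunit, fell by 0.97 and 0.90 (adjusted p = 0.0132 and 0.0188). All arrays shared 1 slide and 1 scan. The barcode of each array ends in position numbers, and the first of these is called the slide column here. Whether it counts columns or rows of the slide was not checked. Column 1 in this sense carried the 3 siControl arrays and P150KD replicate 1, and column 2 carried P150KD replicates 2 to 5. With the column as a block, the fold change rests on that 1 knockdown array, and such values are given for the called members and for called companion genes other than Dusp6. Chaf1a was then at -3.72 (limma adjusted p = 0.0509). The share of higher probes among all calls was 45.1%, and it was 58.2% with quantile normalization and 84.2% when scaled to housekeeping genes, where the median of all tested probes moved to 0.27.

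**Figure D1:**
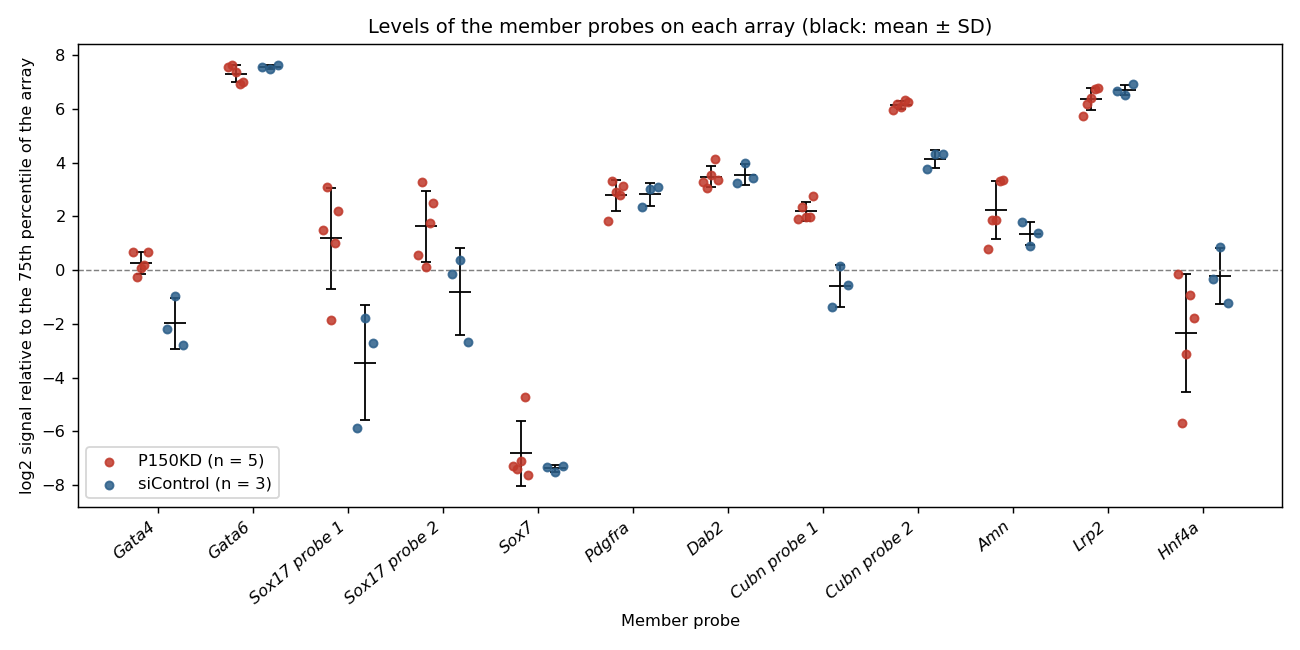
Levels of the 12 member probes on each array, as log2 signal minus the array's 75th percentile, with P150KD (red, n = 5) left of siControl (blue, n = 3) and black bars for mean ± SD. The groups are apart for Gata4 and for both Cubn probes, overlap for the other probes, and the Sox7 probe lies at the bottom on 7 of 8 arrays.

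Cubilin is a large peripheral membrane receptor that binds intrinsic factor with vitamin B12, albumin and apolipoprotein A-I. The Cubn probe A_55_P2047639 stood at 5.97, 6.18, 6.07, 6.35 and 6.26 on P150KD replicates 1 to 5, against 3.75, 4.33 and 4.33 on siControl replicates 1 to 3. Every knockdown array lay above every control array, and the 5 knockdown values spanned less than the 3 control values did. The mean was 6.16 ± 0.15 (SD, n = 5) in P150KD and 4.14 ± 0.33 (SD, n = 3) in siControl, a log2 fold change of 2.02 (SE 0.20, limma adjusted p = 0.00241). The other Cubn probe, A_55_P2047638, read 1.89, 2.34, 1.98, 1.99 and 2.76 on the P150KD arrays, against -1.38, 0.17 and -0.54 on the siControl arrays. Here too the groups did not overlap, and the log2 fold change was 2.77 (SE 0.38, limma adjusted p = 0.00564). With each array left out in turn, the first probe kept a log2 fold change of 1.83 to 2.12 and the second of 2.38 to 3.15, each below an adjusted p of 0.05. Within slide column 1 the values were 1.83 for the first probe (limma adjusted p = 0.0481 blocked by column) and 2.47 for the second (adjusted p = 0.103).

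Amnionless, the partner that carries cubilin to the membrane, did not show the same separation. Amn read 0.80, 1.87, 1.88, 3.31 and 3.35 on P150KD replicates 1 to 5, against 1.79, 0.91 and 1.40 on the siControl arrays. Replicates 4 and 5 were the highest, replicates 2 and 3 were just above the top control, and replicate 1 was below every control. The means were 2.24 ± 1.09 (SD, n = 5) in P150KD and 1.36 ± 0.44 (SD, n = 3) in siControl, a log2 fold change of 0.88 (95% interval -0.56 to 2.32, limma adjusted p = 0.375). Within slide column 1 the sign turned, to -0.56.

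Megalin is a very large transmembrane receptor that binds cubilin and takes up many of the same ligands. Lrp2 read 5.75, 6.19, 6.40, 6.74 and 6.78 on the P150KD arrays, against 6.66, 6.52 and 6.92 on the siControl arrays. Replicates 1 to 3 lay below all controls and replicates 4 and 5 among them. The log2 fold change was -0.33 (95% interval -0.97 to 0.31, limma adjusted p = 0.455), close to the -0.20 of all tested probes. It was 0.14 when scaled to housekeeping genes and -0.95 within slide column 1. P150KD replicates 4 and 5 thus had the highest Amn and Lrp2 signals of their group.

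DAB2 is an endocytic adaptor that binds the tail of megalin. Dab2 read 3.29, 3.07, 3.53, 4.14 and 3.37 on the P150KD arrays, against 3.23, 3.99 and 3.43 on the siControl arrays. The groups overlapped over nearly their whole range. The log2 fold change was -0.07 (95% interval -0.76 to 0.62, limma adjusted p = 0.894), and it was 0.14 with quantile normalization and 0.40 when scaled to housekeeping genes. Whether Cubn differed in response from Amn, Lrp2 or Dab2 was not tested.

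The windows upstream of Cubn, Amn and Lrp2 are shown because these genes encode parts of 1 receptor complex and only Cubn passed the test. Each window has the 250 bases before the annotated start, 5′ to 3′ on the strand of the gene, from RefSeq on build GRCm38.p6, with CpG dinucleotides in capitals. The Cubn window lies at chr2:13491877-13492126 on the minus strand, the Amn window at chr12:111270846-111271095 on the plus strand and the Lrp2 window at chr2:69586030-69586279 on the minus strand.
Cubn: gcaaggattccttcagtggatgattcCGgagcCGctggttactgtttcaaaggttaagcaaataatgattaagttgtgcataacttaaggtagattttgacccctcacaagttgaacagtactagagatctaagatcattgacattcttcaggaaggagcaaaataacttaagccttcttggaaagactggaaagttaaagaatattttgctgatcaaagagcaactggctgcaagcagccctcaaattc
Amn: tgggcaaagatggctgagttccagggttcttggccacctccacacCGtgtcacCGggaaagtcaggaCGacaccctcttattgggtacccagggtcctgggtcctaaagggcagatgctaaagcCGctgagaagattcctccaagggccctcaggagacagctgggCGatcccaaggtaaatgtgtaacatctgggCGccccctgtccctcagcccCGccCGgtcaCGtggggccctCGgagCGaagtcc
Lrp2: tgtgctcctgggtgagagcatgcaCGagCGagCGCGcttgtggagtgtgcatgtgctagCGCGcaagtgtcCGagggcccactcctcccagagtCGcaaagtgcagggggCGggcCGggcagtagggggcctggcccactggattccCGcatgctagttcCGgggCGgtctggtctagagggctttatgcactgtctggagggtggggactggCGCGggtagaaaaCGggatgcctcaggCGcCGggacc

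The Cubn window holds 2 CpG dinucleotides and is 39.6% G or C, against 11 CpG and 61.2% for Amn and 18 CpG and 66.4% for Lrp2. Over all 32851 such windows the median was 6 CpG, with quartiles of 2 and 16. A window was found for 6 member genes, 8 windows in all. The GATA core GATAA was searched on both strands. It was present in 22.6% of all windows and in 2 of the 8, 1 of the 2 windows of Hnf4a and 1 of the 2 of Dab2. The SOX core ACAAT was searched in the same way and was in 27.7% of all windows and in that same Hnf4a window, and the HNF4 motif AAAGTCCA was in 1.01% and in none of the 8. No searched motif is contained in another. Neither the Cubn, the Amn nor the Lrp2 window holds any of them.

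Among the regulators, GATA4 is a zinc finger factor that marks committed primitive endoderm and also acts in heart and gonad. The Gata4 probe read 0.67, -0.25, 0.08, 0.18 and 0.67 on P150KD replicates 1 to 5, against -2.18, -0.95 and -2.80 on siControl replicates 1 to 3. All knockdown arrays were above all control arrays, and the probe was well above background on all 8. The mean was 0.27 ± 0.40 (SD, n = 5) in P150KD and -1.98 ± 0.94 (SD, n = 3) in siControl, a log2 fold change of 2.25 (SE 0.43, limma adjusted p = 0.0172). The call was lost without siControl replicate 1 (2.15, limma adjusted p = 0.0676) or without siControl replicate 3 (1.84, adjusted p = 0.0511). Within slide column 1 the difference was 2.65 (adjusted p = 0.120 blocked by column). Over all tested probes, 27.1% had groups that did not overlap, 9.36% with every P150KD array above every siControl array, as Gata4 and both Cubn probes had, and 17.7% with every P150KD array below.

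GATA6 acts upstream of GATA4 in this lineage and is already made in most cells of the morula. Gata6 read 7.55, 7.63, 7.39, 6.93 and 7.02 on the P150KD arrays, against 7.56, 7.48 and 7.63 on the siControl arrays. Replicates 1 and 2 lay among the controls, and replicates 3, 4 and 5 below them. The means were 7.30 ± 0.32 (SD, n = 5) in P150KD and 7.56 ± 0.08 (SD, n = 3) in siControl. The log2 fold change was -0.25 (95% interval -0.76 to 0.26, limma adjusted p = 0.474), near the -0.20 of all tested probes, and 0.22 when scaled to housekeeping genes. Its interval leaves out a rise of the size seen for Gata4, although the difference between the responses of both genes was not itself tested.

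SOX17 is an HMG box factor of committed primitive endoderm and definitive endoderm. Sox17 probe A_55_P2094706 read 1.48, 3.09, -1.87, 1.03 and 2.20 on the P150KD arrays, against -5.86, -1.77 and -2.70 on the siControl arrays, and siControl replicate 1 was not well above background. On this probe 4 knockdown arrays were above all controls, and replicate 3 was just below the highest control. The log2 fold change of 4.63 (SE 1.29) did not pass (limma adjusted p = 0.0539). Probe A_55_P2157023 read 0.56, 3.29, 0.10, 1.75 and 2.49 on the P150KD arrays, against -0.13, 0.37 and -2.66 on the siControl arrays. Again replicate 3 alone of the knockdown arrays fell within the control range, and the log2 fold change of 2.44 (SE 0.94) did not pass (adjusted p = 0.127). On both probes P150KD replicate 2 was the highest array.

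The Sox17 result lay close to the threshold and moved across it with the processing. The first probe passed with normexp background correction (log2 fold change 3.56, limma adjusted p = 0.0421), with housekeeping scaling (5.10, adjusted p = 0.0402), with a trended and robust variance (4.63, adjusted p = 0.037), with array weights (4.96, adjusted p = 0.0409) and without P150KD replicate 3 (5.39, adjusted p = 0.0276). The second probe passed under none of the alternatives tried. Averaged into 1 value per gene, the probes gave a log2 fold change of 3.54 (SE 0.95, limma adjusted p = 0.0397 over gene means). Every one of these values was above 0.

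SOX7 belongs to the same SOX group as SOX17 and follows it in primitive endoderm. Its probe was well above background on P150KD replicate 4 alone, at -4.70, while the other P150KD arrays read -7.62 to -7.11 and the siControl arrays -7.51 to -7.28. It therefore gave no fold change. HNF4A is a nuclear receptor of the visceral endoderm and liver. Hnf4a read -0.13, -5.70, -3.14, -0.93 and -1.78 on the P150KD arrays, against -0.33, 0.87 and -1.22 on the siControl arrays, and P150KD replicate 2 was not well above background. The knockdown arrays spread far more than the controls, with 3 of 5 below all of them. The log2 fold change of -2.11 had a 95% interval from -4.99 to 0.78 (limma adjusted p = 0.291), and within slide column 1 it was 0.10. P150KD replicate 2, highest of its group for Sox17, was lowest for Hnf4a.

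PDGFRA is the receptor tyrosine kinase that marks primitive endoderm precursors and supports their survival. Its probe was spotted 10 times on each array, and the spots of an array had an SD of 0.07 to 0.12. Pdgfra read 1.81, 3.31, 2.89, 2.81 and 3.13 on the P150KD arrays, against 2.33, 3.02 and 3.10 on the siControl arrays. Differences between arrays of 1 group, with an SD of 0.58 in P150KD and 0.42 in siControl, were thus several times those between spots. The lowest array was P150KD replicate 1, and the others lay around the controls. The log2 fold change was -0.03 (95% interval -0.90 to 0.84, limma adjusted p = 0.967). It was 0.17 with quantile normalization, 0.45 with housekeeping scaling and 0.22 without P150KD replicate 1. Within slide column 1, where P150KD replicate 1 is the only knockdown array, it was -1.01.

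**Figure D2:**
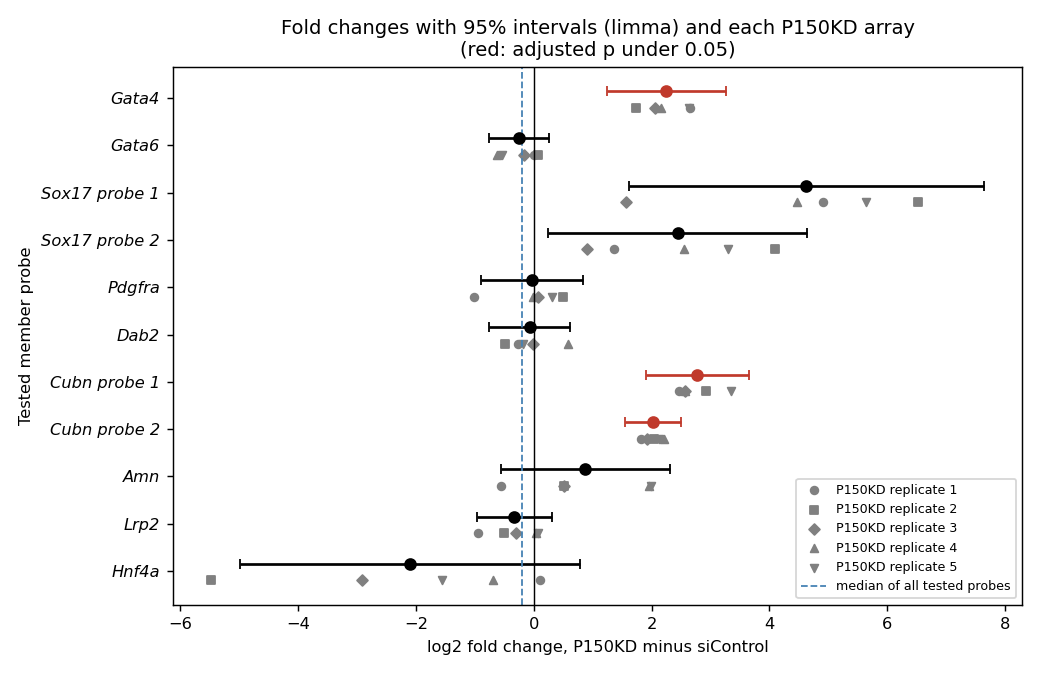
Log2 fold change of each of the 11 tested member probes, P150KD minus siControl, with the 95% interval from limma (red where the adjusted p is under 0.05) and, in grey under it, each P150KD array minus the siControl mean. Gata4, both Cubn probes and both Sox17 probes lie right of 0 on all 5 arrays. The Sox17 intervals leave out 0 as well (1.61 to 7.64 and 0.25 to 4.64), though neither probe passed the adjusted threshold. The intervals of Gata6, Pdgfra, Dab2, Amn, Lrp2 and Hnf4a include 0, and the dashed line marks the median of all tested probes at -0.20.

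Of 6 ligands and other parts of the PDGF system, 3 could be tested and 3 were too dim. Pdgfa, the ligand that PDGFRA meets in the early embryo, averaged 4.01 ± 0.82 (SD, n = 5) in P150KD and 5.75 ± 0.87 (SD, n = 3) in siControl and did not pass (log2 fold change -1.74, SE 0.56, limma adjusted p = 0.0802). Pdgfb differed by 0.09 (adjusted p = 0.953), with a sign that turned under 8 of the 19 alternatives. Pdgfrl, a secreted protein related to the receptors, rose by 2.08 (SE 0.38, limma adjusted p = 0.0141), a call that was lost without siControl replicate 1 (adjusted p = 0.0547) or 3 (adjusted p = 0.0525) and blocked by slide column (adjusted p = 0.126). Pdgfc and Pdgfd were not well above background on any array, and Pdgfrb only on 1 array of each group.

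Of 13 tested genes of the FGF signal that directs inner cells to primitive endoderm, 4 fell and 1 rose in limma, where 10.45% of all 14598 tested genes fell and 6.65% rose, 17.1% in all. At an unadjusted p under 0.05 they were 5 and 3, against 22.9% and 12.7% of all tested genes. Frs2, the adaptor docked on FGF receptors, averaged 3.69 ± 0.14 (SD, n = 5) in P150KD and 4.87 ± 0.17 (SD, n = 3) in siControl (log2 fold change -1.18, adjusted p = 0.00657). Fgfr1, the receptor that inner cells use, fell by 1.03 on the log2 scale (SE 0.20, limma adjusted p = 0.016). The ERK phosphatase genes Dusp4 (-1.91, adjusted p = 0.0179) and Dusp6 (-1.32, adjusted p = 0.0434) fell too, the last of which was named after its values were seen. Fgfr4 rose by 1.22 (adjusted p = 0.0384). Etv4 of the same list was higher by 1.57, with every P150KD array above every siControl array, and did not pass (limma adjusted p = 0.0593). Etv5 went the other way, with every P150KD array below every siControl array, and did not pass either (log2 fold change -0.56, limma adjusted p = 0.122). Fgf4, the ligand made by epiblast cells, differed by 0.51 and did not pass (adjusted p = 0.34). When scaled to housekeeping genes, 1 of the 13 fell and 3 rose. With 1 array left out in turn, Frs2 passed each time, while Fgfr1 and Dusp4 did not pass without siControl replicate 1 (limma adjusted p = 0.0684 and 0.0712), nor Dusp4 without siControl replicate 3 (0.0591), and Fgfr4 failed to pass in 7 of the 8 fits, with an adjusted p of up to 0.121. Blocked by slide column, Dusp4 alone of these 4 named genes passed (limma adjusted p = 0.0403), and the adjusted p was 0.111 for Frs2, 0.252 for Fgfr1 and 0.122 for Fgfr4.

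Further genes of primitive and yolk sac endoderm numbered 30 on the array, of which 19 could be tested and 6 were not well above background on any array, among them Foxa2, Cer1 and Ttr. In limma 2 of the 19 rose and 0 fell, with 3 and 0 at an unadjusted p under 0.05, against 6.65% and 10.45% of all tested genes, or 12.7% and 22.9% at an unadjusted p. Their median log2 fold change was -0.02, beside -0.24 over all tested genes. Foxa1, a pioneer factor of endoderm, averaged 4.18 ± 0.31 (SD, n = 5) in P150KD and 1.99 ± 0.25 (SD, n = 3) in siControl (log2 fold change 2.19, SE 0.23, adjusted p = 0.0029). Apom, an apolipoprotein gene, rose by 1.42 (SE 0.31, limma adjusted p = 0.0242), and not past the threshold without siControl replicate 2 (adjusted p = 0.0781) or 3 (adjusted p = 0.0792). Blocked by slide column, Foxa1 passed (limma adjusted p = 0.0191) and Apom did not (0.0616). The other 17 tested genes of this list did not pass.

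Relatives of the regulators moved in both directions, with 2 of 8 tested GATA, SOX and cofactor genes higher and 2 lower, against 6.65% and 10.45% of all tested genes. Sox15 rose by 1.61 (SE 0.26, limma adjusted p = 0.00996), and Sox21 rose by 1.34 (adjusted p = 0.0156). Sox2, a factor of the epiblast, had a log2 fold change of -2.91 (adjusted p = 0.0108), and the trophectoderm factor Gata3 one of -1.75 (adjusted p = 0.0456). Gata3 did not pass with quantile normalization (limma adjusted p = 0.0778) or with housekeeping scaling (0.121). With 1 array left out in turn, Gata3 did not pass in 6 of the 8 fits, including each without a siControl array (up to 0.146). Sox21 did not pass without siControl replicate 1 (limma adjusted p = 0.0634). Blocked by slide column, Gata3 passed (limma adjusted p = 0.0393), and the adjusted p was 0.141 for Sox15, 0.210 for Sox21 and 0.174 for Sox2. Gata5 belongs to this list and to the endoderm list and did not pass (log2 fold change -0.40, limma adjusted p = 0.226).

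Of 22 tested partners of megalin and cubilin, 2 fell and 0 rose in limma, against 10.45% and 6.65% of all tested genes, so the calls were near the background. At an unadjusted p under 0.05, 9 were lower and 1 higher, against 22.9% and 12.7% of all tested genes. Values below 0 were found for 17 of the 22 and for 61.3% of all tested genes, and the median was -0.70, beside -0.24 over all. Pdzk1, a scaffold of the brush border, ran from -7.02 to -1.36 in P150KD, where 3 of 5 arrays were well above background, against 1.53 to 2.41 in siControl (limma adjusted p = 0.0297). With 1 array left out in turn, Pdzk1 did not pass in 4 of the 8 fits (up to 0.096 without 1 of the siControl arrays). Emp2, a tetraspan protein, averaged 1.39 ± 0.68 (SD, n = 5) in P150KD and 3.98 ± 0.23 (SD, n = 3) in siControl (log2 fold change -2.59, adjusted p = 0.00836). Neither passed blocked by slide column (limma adjusted p = 0.0594 for Pdzk1 and 0.111 for Emp2). Lrpap1, the chaperone that keeps ligands off megalin on its way to the surface, differed by -0.70 (limma adjusted p = 0.0997) and the endosomal chloride transporter gene Clcn5 by -2.17 (adjusted p = 0.0628), neither past the threshold.

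In the clathrin and AP-2 coat, through which these receptors enter the cell, 4 of 20 tested genes fell and 0 rose in limma, against 10.45% and 6.65% of all tested genes. At an unadjusted p under 0.05 they were 8 and 0, against 22.9% and 12.7%. Ap2m1, the AP-2 subunit that reads tyrosine sorting signals, averaged 5.80 ± 0.20 (SD, n = 5) in P150KD and 7.13 ± 0.12 (SD, n = 3) in siControl (log2 fold change -1.33, adjusted p = 0.00573). Ap2b1, which recruits clathrin, averaged -1.46 ± 0.62 (SD, n = 5) in P150KD and 0.04 ± 0.26 (SD, n = 3) in siControl (limma adjusted p = 0.0375), the clathrin heavy chain gene Cltc fell by 0.89 (adjusted p = 0.0225) and the light chain gene Clta by 0.59 (adjusted p = 0.0412). The list's median was -0.34, beside -0.24 over all tested genes, and only 1 of the 20 fell when scaled to the array median or to housekeeping genes. With 1 array left out in turn, 1 to 3 of the 20 fell, and Ap2m1 passed each time. Clta did not pass in any of the 8 fits, Ap2b1 failed to pass in 7 and Cltc in 4. The highest limma adjusted p was 0.124 for Ap2b1, 0.0774 for Cltc and 0.117 for Clta, each without siControl replicate 1. With quantile normalization Clta did not pass either (limma adjusted p = 0.182). None of the 4 passed blocked by slide column (limma adjusted p = 0.0902 for Ap2m1, 0.418 for Ap2b1, 0.282 for Cltc and 0.164 for Clta).

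**Figure D3:**
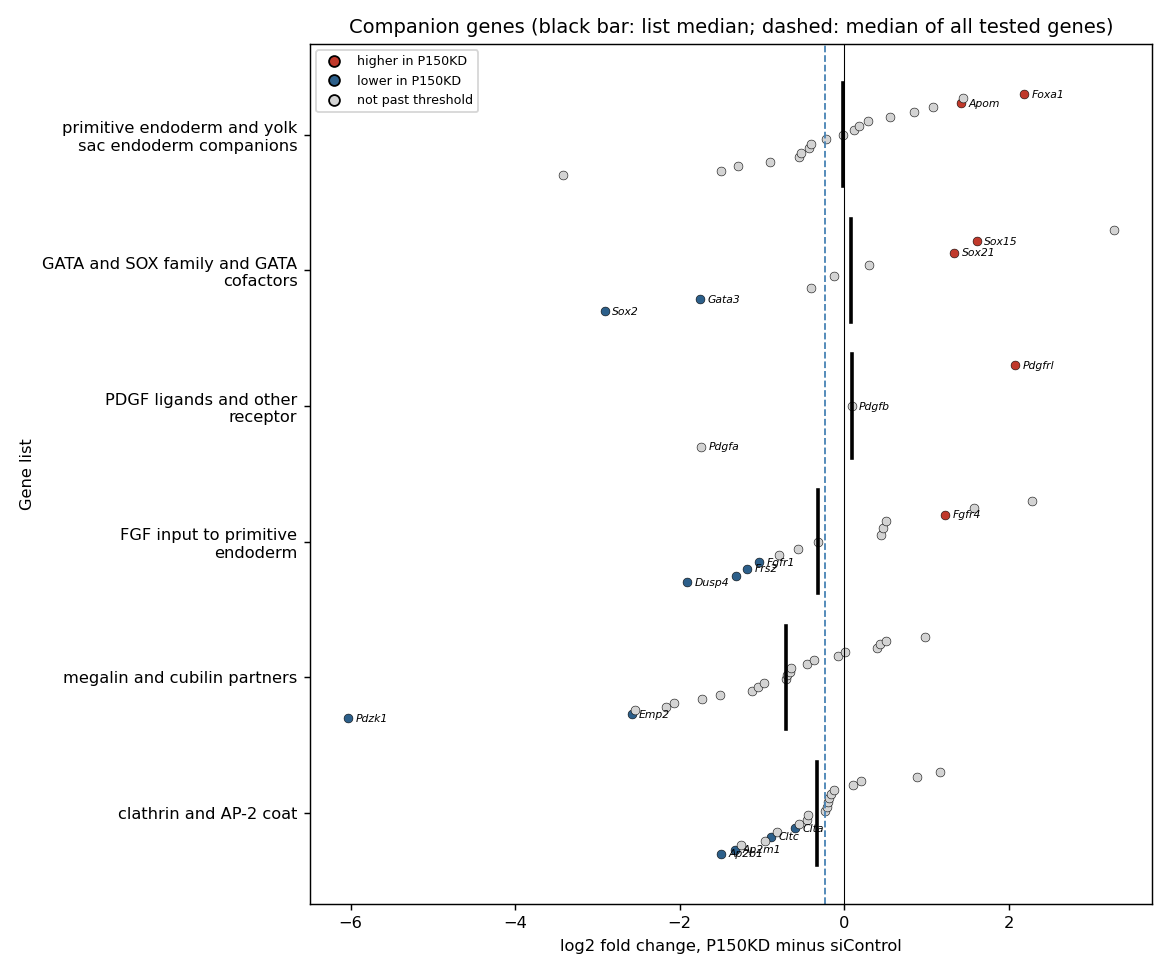
Log2 fold change, P150KD minus siControl, of every tested gene in the 6 companion lists, with genes past the threshold in red (higher) or blue (lower) and a black bar at each list's median. The megalin partners have the lowest median at -0.70, Foxa1 and Apom are the called genes of the endoderm list, and the dashed line is the median of all tested genes at -0.24.

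By the root mean square difference between profiles, each taken as the difference from the gene's own siControl mean over the 8 arrays, the closest of 11282 genes to Gata4 were Speer5-ps1 (0.21), Gm17019 (0.21) and Speer4d (0.23). Those closest to the first-named Cubn probe were 2610524H06Rik (0.17), Fam168a (0.24) and Pmaip1 (0.27). For the other Cubn probe they were Speer2 (0.42), Lypd10 (0.46) and H3c8 (0.46). How close the nearest profile is for other genes was not measured, and the Speer genes form a family of close copies, so their values are uncertain.

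Markers of other cells were read on the same arrays, as sums of signal in multiples of the 75th percentile. Such a sum mostly follows the brightest genes of its list. The highest log2 level on any P150KD array was that of Amhr2 for cumulus and granulosa (3.72), Prm1 for sperm (0.77) and Fabp2 for kidney and intestine (1.65). All 7 epiblast and morula markers were well above background on every array, with sums of 347 to 496 in P150KD and 401 to 473 in siControl, and Sox2 (-2.91) and Zfp42 (-0.65, limma adjusted p = 0.0321) fell. The 7 trophectoderm markers summed to 128 to 143 in P150KD and 275 to 302 in siControl, and 2 of the 6 tested fell, Gata3 and Krt18 (-3.09, limma adjusted p = 0.00296). The 8 leukocyte markers summed to 4.64 to 10.0 in P150KD and 1.28 to 1.83 in siControl. Of the 5 tested, 3 rose (Cd74, Coro1a and Srgn), where 6.65% of all tested genes rose and 10.45% fell. The other tested ones, Cd52 (-1.56, limma adjusted p = 0.367) and Fcer1g (-0.29, adjusted p = 0.389), did not pass. Ptprc, Tyrobp and Laptm5 were not well above background on any array. The 10 cumulus and granulosa markers summed to 8.0 to 15.9 in P150KD and 6.75 to 7.72 in siControl, with 5 not above background on any array and 0 past the threshold in limma. The 6 sperm markers summed to 0.23 to 1.85 in P150KD and 0.17 to 0.24 in siControl. Of 8 genes of kidney tubule and intestine, tissues that use cubilin in the adult, 4 were tested. Fabp2 rose (5.83, limma adjusted p = 0.0137), though it was well above background on only 1 of the 3 siControl arrays. Slc5a2 fell (-2.93, limma adjusted p = 0.0199), and the other tested genes, Slc34a1 and Vil1, did not pass. Umod, Kap and Slc10a2 were not above background on any array. The sums were 1.27 to 3.31 in P150KD and 1.22 to 1.53 in siControl. The part of these cell types in the rises of Cubn and Gata4 was not tested.

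**Figure D4:**
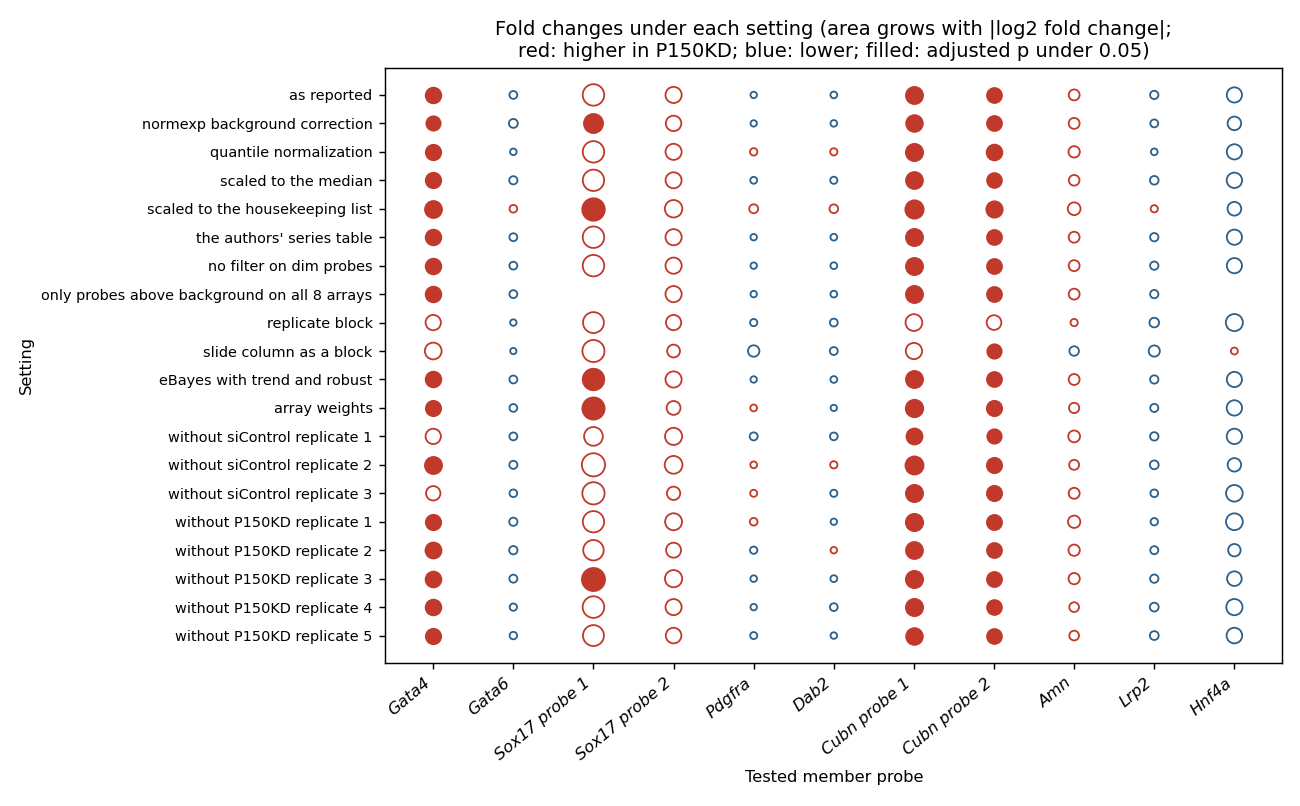
Log2 fold change of each tested member probe under the reported setting (top) and each alternative, with area growing with its size, red for higher and blue for lower in P150KD, and filled circles for an adjusted p under 0.05. Both Cubn probes and Gata4 are red in every row, and so are both Sox17 probes wherever they were fitted. For the Cubn probes and Gata4, the filled circles end with the replicate block for all 3, with the slide column for Gata4 and 1 Cubn probe, and without siControl replicate 1 or 3 for Gata4.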

How the data were processed

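The 8 one-colour arrays (5 P150KD, 3 siControl) carried 5.0 µg of labelled amplified RNA each, per the labels, so levels are relative. Agilent Feature Extraction 10.5.1, per the submitters' processing notes, made the deposited spot intensity values, which per the file headers had background removed and were not scaled between arrays. In the authors' deposited series table, values on the log2 scale matched the scanner files after 75th-percentile scaling and subtraction of the median of each probe, with column medians from -0.21 to 0.09.

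Spots of a probe were averaged without spots flagged as outliers, put on the log2 scale and scaled to the 75th percentile. A probe was tested where well above background on at least 3 of 8 arrays. Of 55681 probes, 27229 were named through RefSeq accessions. P150KD arrays were compared in limma 3.58.1 (R 4.3.3) by two-sided moderated tests (lmFit, eBayes), adjusted by Benjamini-Hochberg over 30348 probes at a threshold of 0.05, with siControl arrays, and the brightest tested probe stood for its gene in lists. Member genes and lists were chosen with earlier results of these data known. Named genes were all members, Chaf1a and Chaf1b, up to 4 called genes with the smallest p per list, lists of 6 or fewer tested genes in full, and the 3 genes with profiles closest to each called member. Other genes (Dusp6, Etv4, Etv5, Fgf4, Gata5, Lrpap1, Clcn5, and markers by name) were named after their values were seen. Same-numbered arrays of both groups did not deviate together (correlations -0.07 to -0.01), so numbers were not taken as pairs. Alternatives are given at the end, and housekeeping scaling used 16 genes. The test was tried on 30348 simulated probes, where it called 31 of 100 with a true 4-fold change, 1 of 100 with a true 2-fold change and 1 that was unchanged. All other simulated probes were unchanged, whereas 13.9% of the real probes were called. The adjustment for many tests was therefore stricter in the simulation, and its rates do not carry over to the data. The number of arrays limits the precision.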

Additional observations from a re-analysis of the deposited data

Results flagged for a closer look

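On P150KD replicate 4 the Sox7 probe read -4.70, against -7.11 for the next highest of the 5 knockdown arrays, a gap of 0.82 of their range where 0.71 is the limit for 5 values. It was the 1 such array among 31 named probes screened over the 5 P150KD arrays, and chance alone marks about 1 group in 20.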

How the results depend on the processing

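The number of arrays limits these results, as does signal near background for Sox7 on 7 of 8 arrays and for 1 Sox17 probe and Hnf4a on 1 array each. Of 17 companion genes called and named by rule, 3 passed blocked by slide column and 0 with the replicate block. Over all probes, higher and lower calls numbered 3310 and 621 with housekeeping scaling, 2073 and 1487 with quantile normalization, 1474 and 1512 scaled to the median, 442 and 271 blocked by slide column, and 0 and 0 with the replicate block (2616 and 3755 at an unadjusted p under 0.05 in limma). They ranged from 1016 to 1770 higher and from 690 to 1979 lower with 1 array left out, lowest without siControl replicate 1. Lower calls were 968 without siControl replicate 2, 957 without siControl replicate 3, 1485 without P150KD replicate 1 and 1510 without P150KD replicate 4. Higher calls were 1215 without siControl replicate 3. Of the member probes, 0 were higher past the threshold with the replicate block (4 at an unadjusted p under 0.05), 1 blocked by slide column and 2 to 4 with 1 array left out, and 0 were lower under any of the alternatives. With the replicate block, which leaves few degrees of freedom, Gata4 was at 2.15 and the Cubn probes at 1.93 and 2.65. No adjusted p passed 0.05 in that fit for any probe. Signs turned for members that had not passed. Gata6 was 0.22 and Lrp2 0.14 with housekeeping scaling. Pdgfra was 0.17, 0.45 and 0.076 with quantile normalization, housekeeping scaling and array weights and ran from -0.27 to 0.22 with 1 array left out. Dab2 was 0.14 and 0.40 with the first 2 of these and ran from -0.23 to 0.15. Amn was -0.56 and Hnf4a 0.10 blocked by slide column. Pdgfb was -0.015 with normexp, -0.035 with quantile normalization, -0.072 with the replicate block, -1.05 with the slide column and -0.57 with array weights, and ran from -0.95 to 0.79 with 1 array left out. Among the lists, GATA and SOX relatives had 1 lower gene under quantile, median and housekeeping scaling, and with 1 array left out 1 to 3 higher and 1 to 2 lower. FGF genes had 3 higher and 1 lower with housekeeping scaling, 0 higher with gene means, and 0 to 1 higher and 1 to 4 lower with 1 array left out. Megalin partners had 1 higher with quantile or housekeeping scaling and 1 to 4 lower with 1 array left out. The coat list had 1 lower under median or housekeeping scaling and 1 to 3 lower with 1 array left out. PDGF genes had 0 to 1 higher and endoderm companions 1 to 3 higher with 1 array left out. The causes were not tested. Scan date was not run as a block, since all arrays shared 1 scan.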
